A study of Mus musculus with 3 samples.

Results

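The sites described here are places where Foxp3 CUT&RUN gave a peak in both replicates and where the annotated ends of neighbouring protein-coding genes lie close together. A peak counted as shared when the replicate 1 and replicate 2 peaks overlapped by at least 50% of both lengths on chromosomes 1 to 19 and X. A shared peak was a member when its replicate 2 summit, the base with the highest fragment pileup, lay within 1000 bp of an end of 2 or more different protein-coding genes in the RefSeq annotation of GRCm38.p6, whose coordinates are those of mm10. Of 31111 shared peaks, 1128 met this rule (3.63%), 7501 lay at an end of 1 gene and 22482 lay away from gene ends. The members were thus chosen by the positions of peaks and summits, and their number is a description without a test.

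Foxp3, a forkhead transcription factor best known as the defining factor of regulatory T cells, was profiled in mouse bone marrow-derived macrophages grown in medium conditioned with M-CSF, the growth factor of the macrophage lineage. In CUT&RUN an antibody tethers a nuclease to its target in permeabilised cells and the released fragments are sequenced; here the cells were first fixed briefly in formaldehyde. The series holds 2 Foxp3 libraries, of 33294105 and 34898401 fragments, and 1 isotype IgG library, whose values were not analysed here. No genotype, strain or age is given for the cells, the series title names stimulation by brain-derived damage signals without the labels assigning it to a library, and nothing says whether the replicates came from separate cultures, so the spread between them may be technical.

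Neighbouring genes on opposite strands can start within a short distance of each other and be transcribed outwards from a common stretch of DNA, called a bidirectional promoter. Such promoters are usually CpG islands without a TATA box, and they are known for serving housekeeping genes, among them genes of DNA repair, mitochondria and protein folding. In the following, the end of a gene at which transcription starts is its head and the other end its tail, so that a bidirectional promoter is a head-to-head pair. Strand was taken from the RefSeq promoter table, which held 17274 of the 21631 protein-coding genes used.

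The promoter sequences below come from sites the results turn on, each from 250 bases before to 50 bases after the annotated start of 1 gene of the pair. They are RefSeq sequences of GRCm38.p6, written 5′ to 3′ on the strand of the named gene. Capitals mark the sequence words that were searched on both strands and are spelled out with the word counts. The first is the common promoter region of Rubcn, the gene of Rubicon (needed for LC3-associated phagocytosis, the uptake of cargo into vesicles that carry LC3), and Fyttd1, which encodes an mRNA export adaptor. All 300 of its bases lay inside the peak of each replicate. The replicate 1 summit fell on base 158 and the replicate 2 summit outside the window.

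Fyttd1/Rubcn, Fyttd1 promoter, chr16:32877534-32877833 (plus strand): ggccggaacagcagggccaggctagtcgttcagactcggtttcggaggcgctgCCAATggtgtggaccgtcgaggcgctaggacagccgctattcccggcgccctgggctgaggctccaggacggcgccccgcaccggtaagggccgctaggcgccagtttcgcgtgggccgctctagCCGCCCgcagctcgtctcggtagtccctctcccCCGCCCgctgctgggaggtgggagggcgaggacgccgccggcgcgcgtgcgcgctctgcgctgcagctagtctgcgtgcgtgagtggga

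The next 3 come from head-to-head pairs at the 90.4th percentile of shared peaks or above in replicate 1 and the 71.4th or above in replicate 2, and carry words typical of housekeeping promoters. Psma2 encodes a proteasome core subunit and faces Mrpl32, a mitochondrial ribosomal protein gene; its window holds 3 matches to the NRF1 word, of which the palindromic GCGCATGCGC accounts for 2, and the summits fell on bases 19 and 27. Ska3 encodes a kinetochore protein and faces Mrpl57, and its window holds the ETS word and the palindromic BANP word, with summits on bases 95 and 208. Phospho2 encodes a phosphatase and faces Ccdc173, and its ETS and CRE words overlap, with summits on bases 144 and 227.

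Mrpl32/Psma2, Psma2 promoter, chr13:14612992-14613291 (plus strand): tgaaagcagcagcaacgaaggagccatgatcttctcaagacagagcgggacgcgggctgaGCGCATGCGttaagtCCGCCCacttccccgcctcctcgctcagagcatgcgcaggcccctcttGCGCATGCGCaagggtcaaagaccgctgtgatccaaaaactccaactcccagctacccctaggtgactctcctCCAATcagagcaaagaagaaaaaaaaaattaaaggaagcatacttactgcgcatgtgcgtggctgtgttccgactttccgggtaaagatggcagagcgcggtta
Mrpl57/Ska3, Ska3 promoter, chr14:57826114-57826413 (minus strand): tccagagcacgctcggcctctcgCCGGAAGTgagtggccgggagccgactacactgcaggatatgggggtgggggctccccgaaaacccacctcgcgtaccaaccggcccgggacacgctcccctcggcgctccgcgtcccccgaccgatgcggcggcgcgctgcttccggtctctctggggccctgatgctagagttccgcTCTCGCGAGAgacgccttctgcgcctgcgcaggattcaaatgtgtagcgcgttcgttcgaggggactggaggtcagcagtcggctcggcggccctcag
Ccdc173/Phospho2, Phospho2 promoter, chr2:69789487-69789786 (plus strand): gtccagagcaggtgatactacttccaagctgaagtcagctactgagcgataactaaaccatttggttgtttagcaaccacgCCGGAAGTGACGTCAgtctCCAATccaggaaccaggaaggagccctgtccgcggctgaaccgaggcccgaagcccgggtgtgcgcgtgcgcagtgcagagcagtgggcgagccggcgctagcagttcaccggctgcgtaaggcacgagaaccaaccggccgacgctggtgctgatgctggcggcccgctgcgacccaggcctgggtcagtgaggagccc

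The following 2 belong to sites among the 10 strongest and hold few or none of the words, and stand here beside the former for contrast. Nup37 encodes a nuclear pore protein and its start lies 7 bp from that of Parpbp; only a CCAAT box was matched, with summits on bases 183 and 274. In the window of Plaa, which encodes a ubiquitin-binding factor, none of the 12 words was matched. Only 166 of its 300 bases lay in both peaks. The replicate 1 summit fell on base 273 and the replicate 2 summit outside the window, so part of the site was not searched.

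Nup37/Parpbp, Nup37 promoter, chr10:88146742-88147041 (plus strand): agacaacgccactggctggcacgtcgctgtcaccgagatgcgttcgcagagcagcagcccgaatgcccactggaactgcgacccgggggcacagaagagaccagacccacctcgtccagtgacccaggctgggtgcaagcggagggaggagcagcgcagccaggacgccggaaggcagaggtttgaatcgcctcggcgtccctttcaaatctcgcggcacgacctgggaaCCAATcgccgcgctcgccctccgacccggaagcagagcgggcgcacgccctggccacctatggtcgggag
Plaa/Ift74, Plaa promoter, chr4:94603198-94603497 (minus strand): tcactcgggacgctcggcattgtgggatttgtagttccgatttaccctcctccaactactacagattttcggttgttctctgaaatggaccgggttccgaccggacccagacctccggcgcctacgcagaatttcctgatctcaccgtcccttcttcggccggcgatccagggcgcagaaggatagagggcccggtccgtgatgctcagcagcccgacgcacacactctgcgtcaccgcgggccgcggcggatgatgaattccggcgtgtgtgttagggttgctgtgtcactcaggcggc

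The last is a histone promoter, shown because its site lay outside it. The window of H2bc12, with 3 matches to the CCAAT box and 1 to the TATA box word, shared only 12 bases with both peaks. The TATA box word was matched on the opposite strand, closer to the beginning of the window than to the start of H2bc12. Both summits were inside the facing gene H2ac12.

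H2ac12/H2bc12, H2bc12 promoter, chr13:22035571-22035870 (plus strand): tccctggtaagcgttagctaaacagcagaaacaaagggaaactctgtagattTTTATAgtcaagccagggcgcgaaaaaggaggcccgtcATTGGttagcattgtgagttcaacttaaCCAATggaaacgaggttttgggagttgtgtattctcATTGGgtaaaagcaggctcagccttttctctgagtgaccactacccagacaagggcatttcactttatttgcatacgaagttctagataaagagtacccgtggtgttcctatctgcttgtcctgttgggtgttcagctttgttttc

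Enrichment at the member sites was close to that of shared peaks at an end of 1 gene. Fold enrichment, the authors' ratio of the summit pileup to a background estimated from the same library, had a median of 11.1 in replicate 1 (quartiles 8.05 and 14.8) and 5.46 in replicate 2 (4.41 and 6.66). At an end of 1 gene the medians were 11.9 and 5.62, and away from gene ends they were 7.93 and 4.37. The ratio of the member median to the median at 1 gene end was 0.935 in replicate 1 and 0.973 in replicate 2, or 0.954 ± 0.0267 (SD, n = 2). Against peaks away from gene ends the ratio was 1.4 and 1.25, or 1.32 ± 0.106 (SD, n = 2). Members were thus slightly below the single ends and above the rest in both libraries, and with 1 group of 2 libraries no test over samples was possible.

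Pileup at the summit had a median of 71 fragments in replicate 1 and 35 in replicate 2, with quartiles of 52 and 98 and of 28 and 42. Peaks were 542 bp and 506.5 bp long at the median, against 289 and 268 bp away from gene ends. The summits of the replicates lay 110 bp apart at the median, and within 50 bp of each other at 329 members (29.2%). Across the 1128 members the Spearman correlation of fold enrichment between replicates was 0.48, and across the single ends it was 0.47; sites of a library share its depth and are not replicates. A fold enrichment among the highest 10% of shared peaks in both replicates was found at 68 members (6.03%), at 7.05% of single ends and at 3.08% of all shared peaks.

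**Figure D1:**
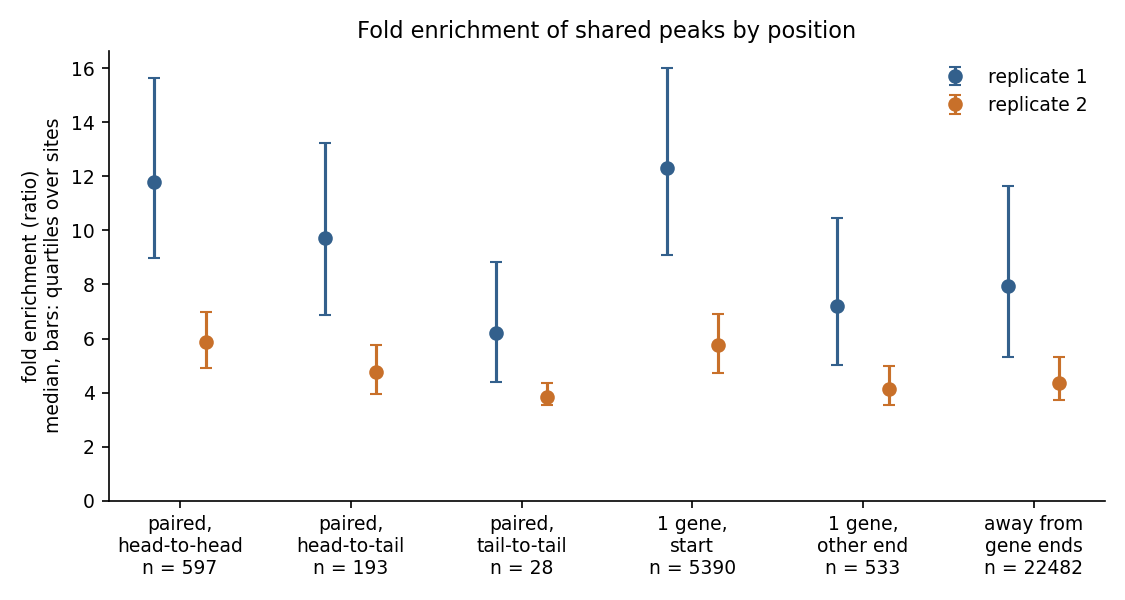
Fold enrichment (ratio, y axis, linear from 0) of shared peaks by class (x axis), for replicate 1 and replicate 2; the marks are medians with the quartiles as bars. Head-to-head members (11.8 and 5.89) lie beside single gene starts (12.3 and 5.76), and tail-to-tail members (6.20 and 3.84) lie lowest among the members.

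Head-to-head pairs were the most frequent kind among members, and enrichment differed with the orientation of the pair. Of the 839 members where the strand of both nearest genes was known, 597 were head-to-head (71.2%, 95% exact binomial interval 68.0 to 74.2%), 193 head-to-tail (23.0%) and 28 tail-to-tail (3.34%), while 19 had starts and 2 had tails of genes on 1 strand. At the other 289 the strand was not given. These intervals cover counting error only. The median distance between the paired ends was 139 bp at head-to-head sites, 463 bp at head-to-tail sites and 156 bp at tail-to-tail sites. The widest gap among members was 1679 bp.

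Head-to-head sites had median fold enrichments of 11.8 and 5.89, head-to-tail sites 9.72 and 4.75, and tail-to-tail sites 6.20 and 3.84. This order was the same in both replicates. Head-to-head medians were 1.21 and 1.24 times those of head-to-tail sites, or 1.23 ± 0.0183 (SD, n = 2). Against single gene starts, with medians of 12.3 and 5.76, head-to-head sites stood at 0.960 and 1.02 times, or 0.991 ± 0.0441 (SD, n = 2), so the order of these groups changed between replicates and common promoters differed from lone starts by less than the spread between replicates. Single gene tails had medians of 7.19 and 4.12, near those of the tail-to-tail members.

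Whether the bodies of a head-to-head pair overlapped made little difference. The 369 sites with separate bodies had medians of 11.83 and 5.88, and the 228 with overlapping bodies 11.73 and 5.91. Among the 68 members in the highest 10% of both libraries, 44 were head-to-head, 5 head-to-tail and 0 tail-to-tail.

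**Figure D2:**
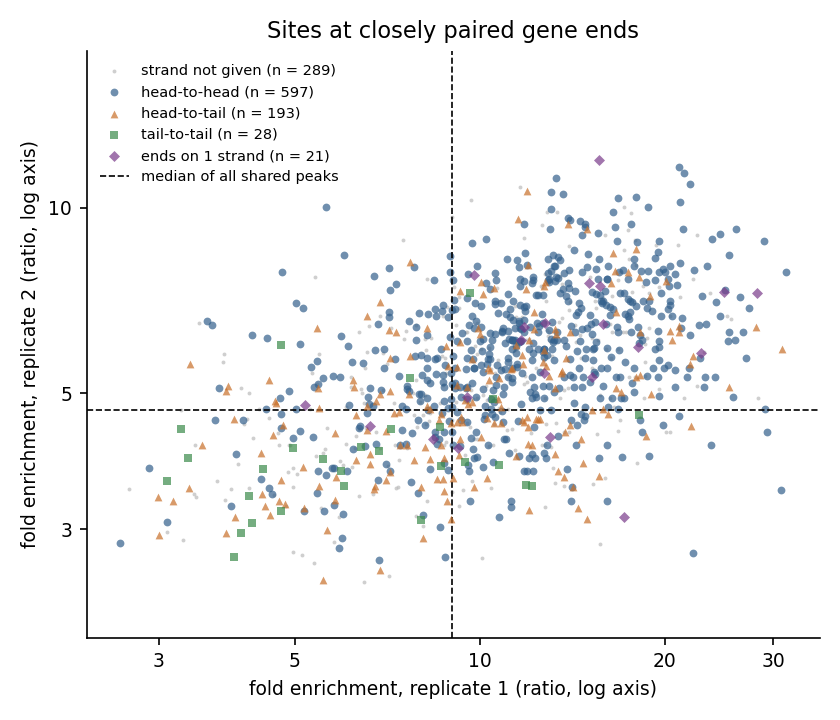
Fold enrichment of each of the 1128 members in replicate 1 (x axis) and replicate 2 (y axis), both log axes of ratios, by orientation of the gene pair; dashed lines are the medians of all shared peaks. Of the 28 tail-to-tail sites 2 lie above both medians, against 384 of the 597 head-to-head sites.

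Seen from the genes, 2118 of the 21631 protein-coding genes (9.79%) had an end at a member site. Of the 7048 genes with an end within 2000 bp of another gene's end, these were 30.1%. The background for any shared peak within 1000 bp of an end was 42% of genes. A member site held 2 genes in 1109 cases and 3 genes in 19, and 149 genes lay at more than 1 member site.

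Of the 4810 close pairs of gene ends in the annotation, with ends up to 2000 bp apart, 1102 held a shared summit within 1000 bp of both ends (22.9%). A gene end with several close neighbours was counted once for each, and chromosome 18 alone had 457 of these pairs, of which 4.38% held such a summit. Head-to-head pairs were filled most often, at 581 of 1005 (57.8%, 54.7 to 60.9%). Head-to-tail pairs were filled at 187 of 975 (19.2%, 16.8 to 21.8%), and tail-to-tail pairs at 32 of 1049 (3.05%, 2.096 to 4.28%). The intervals did not overlap. The stretch within 1000 bp of both ends shrinks as the gap grows, so the shares were also taken at gaps up to 500 bp, where they were 65.4, 33.3 and 5.85%.

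Each replicate alone gave the same order. At gaps up to 500 bp, 97.4% of head-to-head pairs had a replicate 1 summit within 1000 bp of both ends and 85.3% a replicate 2 summit. For tail-to-tail pairs these shares were 62.1% and 18.1%. Replicate 1, with 556535 peaks against 95135, had a summit at most pairs of either kind, and the orientations lay further apart in replicate 2. Head-to-head shares held between 60.6% and 68.2% in the 4 classes of gap up to 700 bp, were 45.9% from 701 to 1000 bp and 11.9% from 1001 to 2000 bp.

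**Figure D3:**
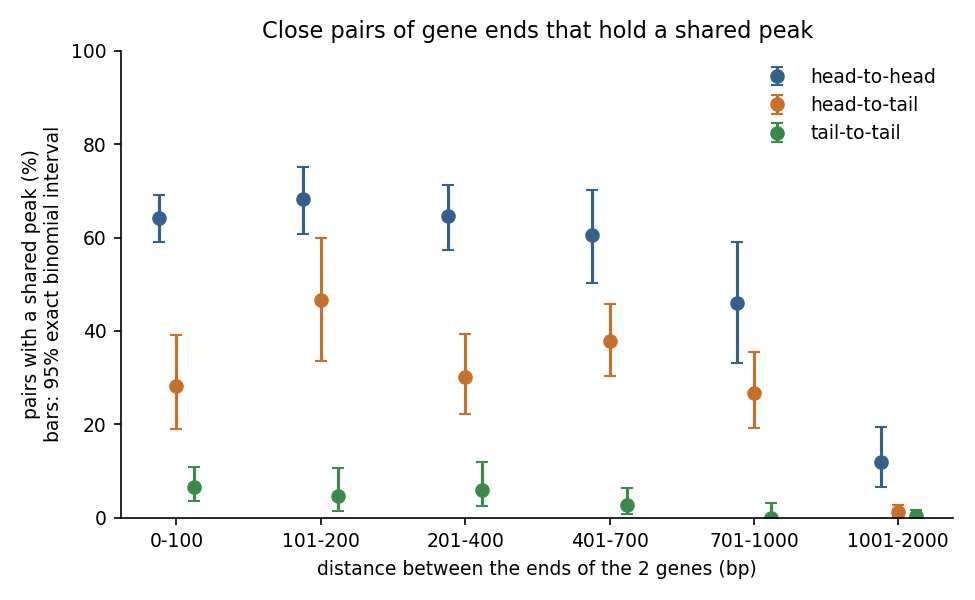
Share of close pairs of gene ends (percent, y axis) that held a shared summit within 1000 bp of both ends, by the gap between the ends (bp, x axis) and orientation, with 95% exact binomial intervals as bars. Head-to-head pairs stay between 60.6% and 68.2% up to 700 bp, while tail-to-tail pairs are at most 6.70% in any class.

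The same picture held for single ends. A shared summit lay within 1000 bp of 1210 of 1972 heads with a head-to-head partner (61.4%, 59.2 to 63.5%) and of 4991 of 13854 heads with no other gene end within 2000 bp (36.0%, 35.2 to 36.8%). Heads close to the tail of another gene stood at 37.9%. The window of a paired head also takes in the start of its partner, so a site of either gene was counted. Among tails, 3.81% of those far from other ends had a shared summit, 5.17% of those facing another tail and 23.8% of those near a head.

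Within head-to-head pairs the summits lay off the stretch between the starts. At the 369 sites with separate bodies the summit was inside 1 of the genes at 335 sites in replicate 1 (90.8%) and 331 in replicate 2 (89.7%). Such summits lay a median of 193 and 180 bp into the gene. At the 276 sites whose starts were at most 200 bp apart, the stretch between them was 68 bp long at the median, so few bases lay between them. At the 18 sites with gaps of 501 to 2000 bp, with a median of 667 bp, 14 replicate 1 summits and 12 replicate 2 summits were still inside a gene. Single gene starts had the summit inside the gene at 81.8% and 82.4%, a median of 256 and 258 bp from the start.

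Both replicates placed the summit in the same gene of the pair at 261 of the 369 sites (70.7%) and in opposite genes at 47 (12.7%). A pair with a shared summit on either side of its middle was rare, at 14 of 352 pairs. The peak itself covered both starts at 52.0% of these sites in replicate 1 and 52.6% in replicate 2. Other peaks of the same library were common nearby. Within 1000 bp of a member, 41.5% had another replicate 1 peak and 14.5% another replicate 2 peak, against 35.2% and 10.6% at single ends.

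**Figure D4:**
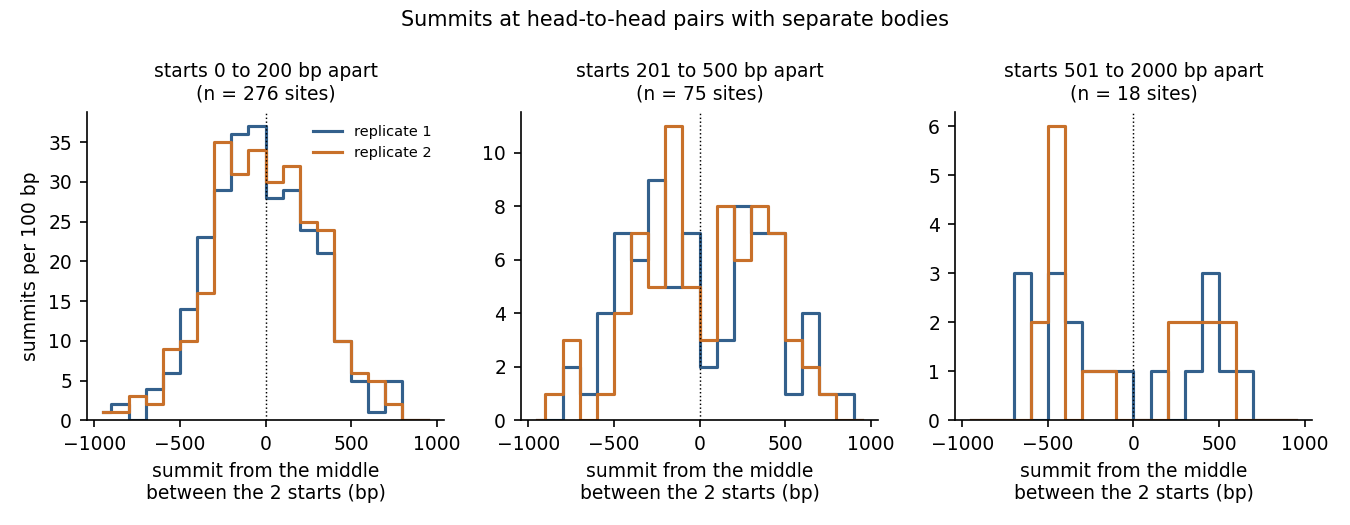
Number of summits per 100 bp (y axis) by distance from the middle of the gap (bp, x axis) at head-to-head pairs with separate bodies, in classes of gap and for both replicates. The summits spread to either side of the middle, with a median distance of 243 bp in both replicates.

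At head-to-tail sites the summit kept to the head. It was nearer the head in both replicates at 152 of 193 sites (78.8%) and nearer the tail in both at 32. The former had median fold enrichments of 10.2 and 4.75, the latter 7.53 and 4.57.

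The strongest members, ranked by the mean of their percentiles among all shared peaks, were head-to-head pairs in 9 of 10 cases, and strand was not given for a gene at the other. The site of Plaa and Ift74, a gene of the intraflagellar transport machinery that builds cilia, had 146 and 46 fragments at its summits and fold enrichments of 26.1 and 9.23. Its peaks covered chr4:94602811-94603363 in replicate 1 and chr4:94602796-94603390 in replicate 2, across starts 19 bp apart. The site of Ccdc173 and Phospho2 had 127 and 44 fragments and fold enrichments of 29.0 and 8.84. Both lay far above the member medians in each library.

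The next sites paired genes of different roles. Tyw5, a tRNA-modifying enzyme, and Maip1, a mitochondrial matrix protein, had fold enrichments of 24.6 and 9.06. Mroh8 and Rpn2, a subunit of the enzyme that attaches N-glycans, had 22.0 and 10.9. Cops2, of the COP9 signalosome, and Galk2, a sugar kinase, had 21.5 and 11.4. All of these were well above the member medians in both replicates, and their summits lay 55 to 338 bp apart.

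Nfs1, the desulfurase that supplies sulfur for iron-sulfur clusters, and Romo1, a mitochondrial membrane protein, had fold enrichments of 23.9 and 8.89. Pikfyve, the lipid kinase of endosomes and lysosomes, and Idh1, the cytosolic isocitrate dehydrogenase, had 21.1 and 11.6. Nup37 and Parpbp had 21.2 and 10.2. Atr, the kinase that signals stalled replication, had 25.4 and 8.39 at the start it shares with 1700065D16Rik, and its summits were only 3 bp apart. Fam185a and Ccdc146, where strand was not given, had 22.6 and 9.03.

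Rubcn and Fyttd1 start 148 bp apart with overlapping bodies. The peaks covered chr16:32877398-32877881 in replicate 1 and chr16:32877451-32877886 in replicate 2, with 150 and 27 fragments at the summits and fold enrichments of 21.9 and 5.50, or 13.7 ± 11.6 (SD, n = 2). The site stood at the 96.9th percentile of shared peaks in replicate 1 and at the 69.4th in replicate 2, and the summits were 205 bp apart. It was thus high in replicate 1 and close to the member median in replicate 2.

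Sites with 3 genes were led by Cmc4, Mtcp1 and Brcc3 on the X chromosome, with fold enrichments of 28.3 and 7.26. Cmc4 and Mtcp1 start at the same base there, and Brcc3, a lysine-63 deubiquitinase, starts on the opposite strand. Trim23, Trappc13 and Shld3 had 23.3 and 5.30, and Ubr7, Gm20604 and Gon7 had 19.6 and 5.95. Cab39l, Gm45935 and Setdb2, a histone methyltransferase gene, had 16.1 and 7.66, and Anxa9, LOC115489748 and Cers2, a ceramide synthase gene, had 11.8 and 6.40. All 5 lay above the member medians in replicate 1, and 4 of them in replicate 2.

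The highest head-to-tail sites included the head of Marveld2, which encodes tricellulin, next to the tail of the checkpoint gene Rad17, at 20.1 and 7.61. Other high sites of the group were at pairs of Steap1, Dusp10, Zfand5 or Herc1 by its head with a provisionally named gene by its tail, with fold enrichments of 16.5 to 18.2 in replicate 1 and 7.73 to 8.56 in replicate 2. The replicate 2 summit was nearer the head at Steap1 (62 bp) and Herc1 (130 bp), but it was 911 bp from the head of Dusp10 and 438 bp from the tail of 1700056E22Rik, and 964 bp from the head of Zfand5 and 8 bp from the tail of LOC115489044. Tail-to-tail sites were lower. Tfpt and Ndufa3, a complex I subunit gene, had 9.62 and 7.26 and were the highest of them by percentile. Cd72, an inhibitory receptor gene of B cells, and Tesk1 had 7.70 and 5.28, Lysmd1 and Tnfaip8l2 had 10.5 and 4.89, and Gfy and Slc17a7 had 4.75 and 5.98.

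The weakest member was Tshz3 and Gm36722, at 2.59 and 2.85, followed by Dnlz and Card9, the adaptor of fungal recognition, at 3.01 and 2.94. The longest replicate 2 peak among members was at Ss18l1 and Psma7, at 1767 bp, with 1330 bp in replicate 1, where the longest member peak had 1803 bp. At the distance limit, Hectd3 and Urod lay just inside, with an end 999 bp from the summit and fold enrichments of 7.02 and 3.83, and Bccip and Uros just outside, at 1001 bp with 8.90 and 3.204. At the overlap limit, Ifi27 and Ifi27l2a were just inside at 50% with 3.44 and 4.12, as were Trmt1l and Swt1 at 50.1% with 11.3 and 6.09. Gatc and Triap1 were just outside at 49.9% with 16.5 and 5.24, as were Slc35c2 and Elmo2 with 7.35 and 3.26.

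Gene lists of known function differed widely in how many of their genes lay at member sites, as did the share of their genes that have a close neighbour at all. Over all protein-coding genes these shares were 9.79% and 32.6%. Replication-dependent histones, which package newly made DNA, stood at 39 of 62 (62.9%). Subunits and assembly factors of respiratory complex I followed with 17 of 49 (34.7%), chaperonins and heat shock proteins with 10 of 33 (30.3%), mitochondrial ribosomal proteins with 20 of 78 (25.6%), aminoacyl-tRNA synthetases with 9 of 38 (23.7%) and DNA repair genes with 13 of 60 (21.7%). Between 52.6% and 80.6% of the genes of these lists have an end within 2000 bp of another gene's, over the share of all genes. Among only the genes with such a close end, the share at members was 30.1% over all genes, 78% for histones, 50% for complex I, 45.5% for chaperonins, 45% for tRNA synthetases, 40% for the mitochondrial ribosome and 31.7% for DNA repair. The share of repair genes was thus close to that of all genes with a close neighbour. The lists were compared by these counts alone.

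**Figure D5:**
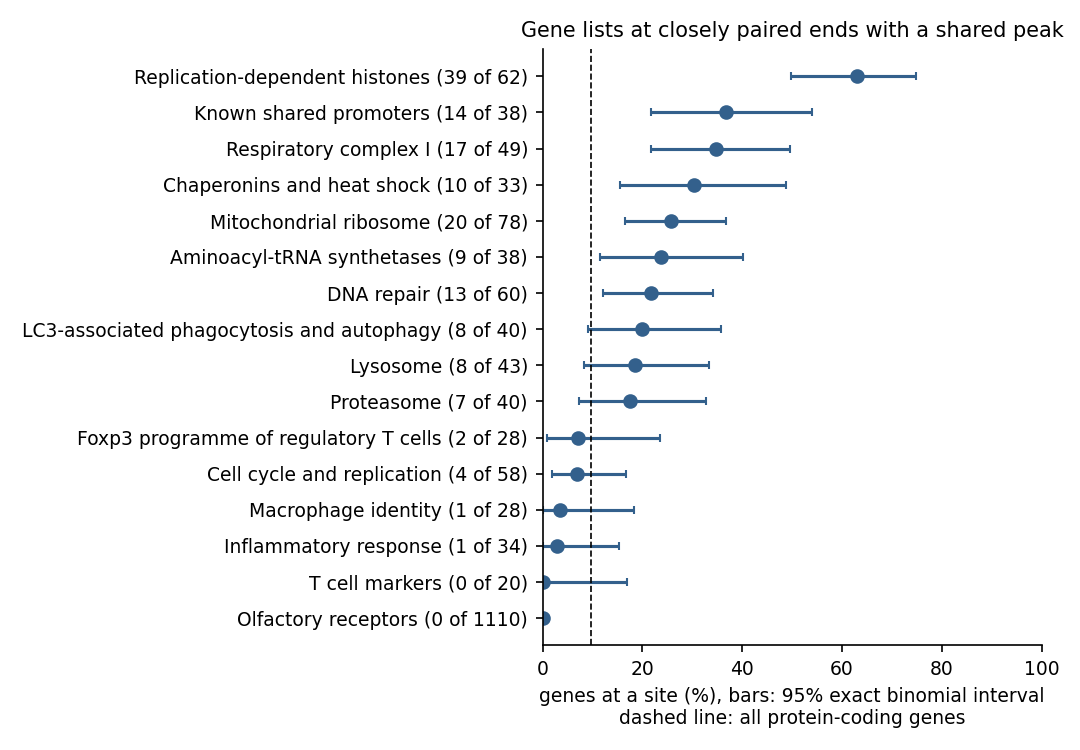
Share of genes (percent, x axis) of each list that lay at a member site, with 95% exact binomial intervals as bars, beside the share of all protein-coding genes (dashed line, 9.79%). Histones stand highest at 62.9%, and the olfactory receptors and T cell markers are at 0.

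At sites of DNA repair genes the median of replicate 1 was 17.8, the highest of the lists, and that of replicate 2 was 6.68. Palb2, the partner of BRCA2 in homologous recombination, shares its start region with the dynactin gene Dctn5, with 188 and 39 fragments at the summits and fold enrichments of 31.6 and 7.85. The replicate 1 value was the highest of all members. Fancf, of the Fanconi anaemia core complex, and Gas2 had 20.4 and 7.06. The site Brca1/Nbr1, at the starts of a breast cancer susceptibility gene of homologous recombination and an autophagy cargo receptor gene, had 14.1 and 3.34, above the member median in replicate 1 and below it in replicate 2. The other genes of this list at members were Apex1, Fancb, Fancd2, Lig4, Rad51c, Wrn, Xrcc1 and Xrcc4, beside Atr and Rad17 above.

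Genes of the mitochondrial lists lay opposite genes of several kinds. Mrpl32, a mitochondrial ribosomal protein gene, and Psma2 had 88 and 46 fragments and fold enrichments of 21.4 and 9.23, the highest of either list. Ndufb5, a complex I subunit gene, and Mrpl47 start 302 bp apart, with 13.9 and 7.06. Ndufb9 and Tatdn1 had 17.5 and 8.25, Ndufaf2, a complex I assembly factor gene, and the repair gene Ercc8 had 11.3 and 7.07, and Ndufv3 and Wdr4 had 13.1 and 6.04. These lay above the member medians in both replicates. The list medians were 9.55 and 5.50 for complex I and 9.64 and 5.18 for the mitochondrial ribosome. They were close to those over all genes at members, 11.5 and 5.52, or below them.

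Among the folding genes, Hspd1 and Hspe1, which encode the mitochondrial chaperonin and its cap, had 142 and 46 fragments at the summits and fold enrichments of 20.3 and 6.86. Sumf2, beside the tail of the chaperonin gene Cct6a, had 31.0 and 5.89, and Hsp90b1, an endoplasmic reticulum chaperone gene, and Ttc41 had 20.8 and 5.45. Proteasome genes at members numbered 7 of 40 (17.5%, 7.34 to 32.8%), an interval that takes in the 9.79% of all genes. Among them, Dnajc2 and Psmc2 had 22.5 and 5.13 and Psma4 had 18.6 and 6.01. Of the tRNA synthetase genes, Fars2 and Lyrm4 had 19.5 and 5.30, and Yars and S100pbp 13.2 and 8.05. Replicate 1 values in this group were mostly above the member median, and replicate 2 values lay on either side of it.

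Genes of LC3-associated phagocytosis and autophagy, the pathway of Rubcn, were at member sites in 8 of 40 cases (20%, 9.05 to 35.6%), and lysosomal genes in 8 of 43 (18.6%, 8.39 to 33.4%). Both intervals take in the 9.79% of all protein-coding genes. Among genes with a close end, 36.4% of each list were at members, against 30.1% over all genes. Atg3, the enzyme that hands LC3 to its lipid, and Slc35a5 had 100 and 38 fragments and fold enrichments of 19.3 and 7.64. Atg12 and Ap3s1 had 11.5 and 6.65, and Atg4b, the protease that prepares LC3, and Thap4 had 11.6 and 6.08. Atg9a, Cyba, Gabarap and Nbr1 made up the rest with Rubcn. Of the lysosome list, Atp6v1a, a proton pump subunit gene, and Naa50 had 11.8 and 6.56, and Atp6v1b2 and Slc18a1 had 16.9 and 4.52. The list medians, taken over genes by the strongest member site of each, were 11.5 and 5.21 for the autophagy list and 10.2 and 4.74 for the lysosome list. Over all genes at members they were 11.5 and 5.52.

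Few genes that mark the cell type were at member sites, and these counts could not be told apart from the 9.79% of all genes. The intervals were 0.0904 to 18.3% for the macrophage identity list and 0.0744 to 15.3% for the inflammatory list. For the T cell markers the interval reached 16.8%. Csf1r, the M-CSF receptor, was the only gene of 28 in the macrophage identity list at a member site, with fold enrichments of 8.07 and 4.61, and only 4 of these 28 have a close neighbouring end. The replicate 2 summit there lay 843 bp from the higher-coordinate end of Csf1r and 981 bp from an end of Hmgxb3. Strand was not given for either gene, so the site cannot be placed at the start of Csf1r. Of 34 inflammatory genes, Nfkb2 alone had a member, at its tail facing that of Psd, with 5.999 and 3.53. Of 28 genes of the Foxp3 programme in regulatory T cells, 2 were at members (7.14%, 0.877 to 23.5%), beside 9.79% of all genes. Entpd1, which encodes the ectonucleotidase CD39, had 19.6 and 7.85 at the start it shares with Tctn3, and Ikzf4 had 8.84 and 5.54. None of 20 T cell markers and none of 1110 olfactory receptors was at a member site, and for the latter the interval reached 0.332%. A shared peak at an end, paired or not, was found for 9 of the 28 macrophage identity genes (32.1%) and 2 of the 20 T cell markers (10%). Of the Foxp3 programme, 7 of 28 genes (25%) had one. These shares stand against 42% of all genes. Of the defining macrophage markers, 3 of 7 had a shared peak at an end (Csf1r, Spi1 and Mertk), and of those of T cells 0 of 7; a peak is no measure of expression.

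The cell cycle list had 4 of 58 genes at members (6.90%, 1.91 to 16.7%), an interval that takes in the share of all genes. Aurka, a mitotic kinase gene, and Cstf1 had 16.2 and 4.75, Orc6 of the origin recognition complex and Vps35 had 9.08 and 7.42, Mcm7 of the replicative helicase and Ap4m1 had 11.8 and 3.73, and Plk1 had a site at its tail with 4.91 and 4.12.

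The histone members were 27 sites, 22 on chromosome 13 and 5 on chromosome 3, and 25 of them held only genes of the histone list. The others paired H2ac24 with H4bc24, which that list did not include. Histone genes are short and clustered, with a median length of 491 bp in the annotation, so 1 summit can be near the ends of neighbours. Both summits were inside the same histone gene of the list at 24 of the 27 sites, and only 9 of the sites were head-to-head, while 11 were head-to-tail. Fold enrichment ran from 3.29 to 28.4 in replicate 1, with a median of 9.72, and from 2.88 to 9.31 in replicate 2, with a median of 5.26. Copies of histone genes are nearly identical in sequence, so reads could be divided among them and single sites are uncertain.

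The highest histone sites by mean percentile were H3c13 with H2bc18, at 24.97 and 7.29 with 139 and 44 fragments, and H2ac12 with H2bc12, at 14.8 and 9.31 with 63 and 52 fragments. The highest replicate 1 value was at H2bc9 with H3c7, at 28.4 and 4.91 with 180 and 24 fragments. H2ac20, H2ac21 and H2bc21 had 18.2 and 4.61 at a tail-to-tail site inside H2ac20. The weakest was a site of H4c1 and H3c1, at 3.29 and 2.88, which was among the 3 lowest members. At the limit of 500 bp in place of 1000 bp, 19 histone genes were at a member site in place of 39.

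Of 19 gene pairs chosen as known for a common promoter, 7 had a member site, with 36.8% of the genes of the list. Among all close pairs, 57.8% of the head-to-head ones and 22.9% of those of any orientation held a shared summit within 1000 bp of both ends. The 7 pairs were Rubcn with Fyttd1, Brca1 with Nbr1, Hspd1 with Hspe1, Ppat with Paics, enzymes of purine synthesis, at 9.57 and 7.81, Tap1 with Psmb9, of antigen presentation, at 8.91 and 4.51, and the pairs Hars with Hars2 and Thg1l with Lsm11, the last of which the annotation places head-to-tail. Of the other 12, 8 had a summit of each replicate within 1000 bp of both ends but no shared peak there, and 3 had no replicate 2 summit. Atm and Npat, for example, had fold enrichments of up to 18.4 in replicate 1 and 8.69 in replicate 2, and the collagen genes Col4a1 and Col4a2 had 13.6 and 5.61. The overlap rule thus left out pairs at which both libraries had a peak.

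The promoter sequences of head-to-head members were rich in CpG, as those of other occupied starts were. Their GC content had a median of 63.7% in 1143 promoters, against 62.7% at starts with a shared peak at 1 gene end, 59.0% in 637 head-to-head starts without a shared peak and 56.3% in all 17274. The observed to expected ratio of CpG was 0.855, 0.775, 0.778 and 0.586 in the same order. The windows of facing genes overlap where the gap is short, so the promoters of a pair are not independent.

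Of the words searched in these 300-base windows on both strands, the ETS word CCGGAAGT was in 13.6% of head-to-head member promoters, in 11.5% of head-to-head starts without a shared peak and in 5.34% of all. The YY1 word AAGATGGCG was in 5.25, 4.08 and 1.92%, and the BANP word TCTCGCGAG in 3.32, 2.83 and 1.04%. The NRF1 word GCGCATGCG was in 4.72, 3.92 and 2.43%, and the GC box GGGCGG in 66.3, 59.3 and 46.9%. Each of these words was more frequent in both groups of head-to-head starts than in all promoters. Between those groups the intervals overlapped for each of these words but the GC box (63.5 to 69.1% with a shared peak, 55.4 to 63.2% without). At starts with a shared peak at 1 gene end the GC box was in 70.1%, more than at the head-to-head members. The ETS word was in 6.79% of these single starts, the YY1 word in 2.44% and the BANP word in 1.48%. Their share with the NRF1 word, 3.86%, lay inside the interval of the head-to-head members (3.57 to 6.12%). The BANP and NRF1 words overlap their own reverse complement, so that a palindromic match counts on both strands, and the ETS word can overlap the CRE word TGACGTCA, which was in 3.59, 4.24 and 2.36%.

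The forkhead core TGTTTAC, the DNA word of the family to which Foxp3 belongs, was in 1.31% of head-to-head member promoters (0.736 to 2.16%), 2.198% of head-to-head starts without a shared peak and 2.96% of all promoters. The repeat word TTTGTTTG was in 1.05, 0.942 and 2.18%. The TATA box TATAAA was in 3.59, 8.63 and 13.4%, the AP-1 word TGANTCA in 3.32, 4.55 and 7.09%, the PU.1 word GAGGAAGT in 2.36, 2.35 and 3.17%, and the CCAAT box in 39.2, 45.4 and 39.6%. For the TATA box the intervals of the head-to-head groups did not overlap (2.59 to 4.83% with a shared peak, 6.57 to 11.1% without). Starts with a shared peak at 1 gene end had the TATA box in 7.31%. They had the forkhead core in 1.96%, inside the interval of the head-to-head members. A word missing from a window says only that its letters are not there. The windows held the summit at 46.4% of head-to-head sites in replicate 1 and 43.7% in replicate 2, so most summits lay outside the sequence searched.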

How the data were processed

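Foxp3 CUT&RUN libraries of mouse bone marrow-derived macrophages (replicates 1 and 2) were analysed from the deposited peak lists. The submitters' processing notes name CASAVA 1.4 and the build mm10. For the aligner, a name was not given in the sources used here. The authors called peaks with MACS 2.1.1.20160309 on each library separately, without a control library, at a q-value limit of 0.01, per the file headers. A site that any antibody would give can therefore be listed. The pileup was deposited as an unscaled signal (fragments covering the summit). Fold enrichment was deposited as a ratio to a background estimated from the same library. The deposited significance is −log10 of the p-value and −log10 of the q-value. Per the file headers the libraries held 33294105 and 34898401 fragments, and the smallest pileup called was 10 and 13, so weaker sites could not be listed.

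Peaks were paired, assigned to gene ends and summarised in Python 3.11.15 with pandas 2.3.3, numpy 2.4.6 and scipy 1.17.1, after the scripts had been tested on simulated peaks. Gene positions and promoter sequences are those of RefSeq for GRCm38.p6. Strand came from the promoter table and was known for 79.9% of genes, and for no gene on chromosome 18. Shares carry 95% exact binomial (Clopper-Pearson) intervals, which cover counting error only. With 1 group of 2 libraries, no test was run. Named sites were Rubcn and Fyttd1, the 10 highest by mean percentile of fold enrichment, the 5 highest with 3 genes and in each orientation, the highest 4 genes of each list, the 3 lowest, the 3 longest, and sites at the limits; a few others were named to account for a count, after their values were seen. The members and lists were chosen with earlier results of these data known. Alternatives were other overlaps, distances, peak thresholds, single replicates and gene sets.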

Additional observations from a re-analysis of the deposited data

How the results depend on the processing

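The number of members was 1128, and 386 with an overlap of 80%, 689 within 500 bp, 717 with only pairs of separate bodies, and 1745 to 3311 when 1 replicate was left out and all peaks of the other were used. Their share of peaks, 3.63%, was 3.13% at a 1 bp overlap, 4.23% at 80%, 2.21% within 500 bp, 5.31% within 2000 bp, 4.28% for peaks with −log10 q of at least 5, 5.02% with the strongest replicate 1 peaks in equal number, 3.28% without unnamed gene models, 2.30% with separate bodies only, and 0.596 to 1.84% when 1 replicate was left out. The head-to-head share, 71.2%, was 80.6% within 500 bp, 57.5% within 2000 bp and 67.9% with separate bodies only. The share of close pairs filled was 65.4% and 63.4% for head-to-head pairs with ends up to 500 and 1000 bp apart, 33.3% and 33.2% for head-to-tail pairs, and 5.85% for tail-to-tail pairs up to 500 bp. The order of the orientations was the same in each. Median fold enrichment stayed between 10.4 and 12.2 in replicate 1 and between 5.11 and 5.89 in replicate 2 over 10 alternatives. Histone genes at members numbered 19 to 47. Alternatives on histones were added after the data were seen. Of 77 values, 51 stayed and 26 moved, where a count stayed if within 1.5 times its value, and a share or median if within its counting interval or the spread between replicates. For median fold enrichment that spread was wide, allowing 7.12 to 15.1 in replicate 1 and 1.47 to 9.46 in replicate 2. All 10 alternatives of each replicate stayed within it, which says little about how stable the medians are.

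No paired analysis was possible because the study has 1 group of 2 Foxp3 libraries, and the IgG library carries no replicate number and was not analysed here. Depth limits the lists to summits of at least 10 and 13 fragments, and no background from the IgG library stands beside any value.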

Other observations

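Some members also lay near ends of noncoding RNA genes, which the rule did not use. An end of a long noncoding RNA gene lay within 1000 bp of the replicate 2 summit at 37 of 1128 members (3.28%), at 906 of 7501 sites at an end of 1 gene (12.1%) and at 4.29% of sites away from gene ends; the difference was not tested. The strongest of the members with one was Ndufb9 and Tatdn1, beside Gm36559, with fold enrichments of 17.5 and 8.25. A miRNA end was near 4 members. Mir574 lay at the site of Fam114a1 and Tlr6, a Toll-like receptor gene, with fold enrichments of 11.0 and 6.71, and Mir1945, Mir7009 and Mir3057 lay at the others. These members were near or above the median of all members in replicate 2, except the site of Mir3057 at Tjp3 and Apba3, with 5.93 and 3.74.

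The members' share of shared peaks was lowest on the X chromosome, at 1.43%, and highest on chromosome 19, at 6.45%. The share of close pairs of ends that were filled was lowest on chromosome 18, at 4.38% of 457 pairs, and highest on chromosome 13, at 37.6% of 133 pairs. Chromosome 18 had the most close pairs of any chromosome, beside 972 shared peaks. A gene end with several close neighbours was counted once for each of them, and why chromosome 18 had so many pairs was not tested. Chromosome 13 holds 22 of the 27 histone sites.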
